A study of Macaca mulatta with 23 samples.

Results

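DNA methylation was described at 10 genes that mark the oligodendrocyte and astrocyte lineages, in tissue of the central amygdala nucleus from 23 young rhesus monkeys. Members were all positions of the deposited table that fell inside 9 windows of the human build hg19. Membership rests on coordinates and not on any measured value, though the genes and windows were chosen with earlier results of these data known. The windows held 409 of the 444312 positions. OLIG1 and OLIG2 are neighbours and shared 1 window with 112 positions, and SOX10 had 43, NKX6-2 87, MBP 22, MAG 33, CNP 21, GFAP 83, AQP4 3 and ALDH1L1 5. The gene names are those of the windows. No hg19 gene annotation was used here, so no position is assigned to a promoter, exon or intron.

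Each monkey gave 1 library from 1 hemisphere, 12 from the right and 11 from the left. Every monkey had an anxious temperament score, which ran over the animals between -1.48 and 1.43, and an age between 1.1 and 2.13 years. The assay was reduced representation bisulfite sequencing, in which MspI cuts the DNA at CCGG and short, CpG-rich fragments are read after bisulfite has converted unmethylated cytosine. The study treated the score as a continuous trait with age as its covariate, and the labels give no treatment or genotype. The identifiers of 12 monkeys begin with r and those of 11 with B, and the sources used here do not say what this difference stands for.

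Oligodendrocytes wrap axons in myelin. Their fate is set by the transcription factors OLIG2 and SOX10, and maturation is accompanied by the products of genes such as MBP, MAG and CNP. Astrocytes support synapses and blood vessels and are recognised by GFAP, AQP4 and ALDH1L1. In rodents, the Gfap promoter loses methylation as progenitors gain the ability to form astrocytes. The tissue is a mixture of neurons and glia, so a level of methylation cannot be told apart from the share of cells that carry it. The cell types themselves cannot be checked from these data, because no expression was measured.

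Levels are printed in percent. Read counts do not accompany them, and the depth behind a value is therefore unknown. Libraries differed in how many positions they covered, with 223368 to 440976 values per monkey over the whole table. At the glial windows left 3 lacked 53.3% of the positions, left 4 31.3%, right 9 23% and right 3 18.1%, where the median library lacked 2.44%. Right 9 also stood apart in its values at several genes. For several runs, levels are also given without right 9 and left 3, or with the value of right 9 named. At others, such as OLIG1/OLIG2 run 1, NKX6-2 run 1 and GFAP run 2, only the level that includes right 9 is given. Positions 1 bp apart were taken as both cytosines of 1 CpG, which left 287 distinct sites among the 409 positions.

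Neighbouring positions, at most 200 bp from the next, were joined into runs, and 22 runs of at least 3 positions lay in the windows. A run's level in a monkey is the mean over its positions after centring each position on its mean over the monkeys. Runs are numbered by rising coordinate within each window.

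Most of the glial positions had a mean under 20%, a share near that of the table, and fewer than in the table had a mean above 80%. Of the 409 positions, 260 had a mean under 20% (63.6%), 118 lay at 20% to 80% (28.9%) and 31 were above 80% (7.58%). Over the whole table the shares were 60.9%, 18% and 21.1%. The oligodendrocyte windows had 67.9% of their 318 positions under 20% and 6.6% above 80%. The astrocyte windows had 48.4% of their 91 positions under 20% and 11% above 80%. These pooled shares follow the windows that held most positions and do not describe every gene of a lineage. The share under 20% was 100% at NKX6-2, 78.8% at MAG and 75% at OLIG1 and OLIG2. It was 40.9% at MBP, 33.3% at CNP and 6.98% at SOX10, all below the pooled astrocyte share. Among the astrocyte windows it was 50.6% at GFAP, 33.3% at AQP4 and 20% at ALDH1L1. Of the 22 runs, 10 had a mean under 20%, 12 lay at 20% to 80% and 0 were above 80%, where the 32706 runs of the table had 34.5%, 57.8% and 7.77%.

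**Figure D1:**
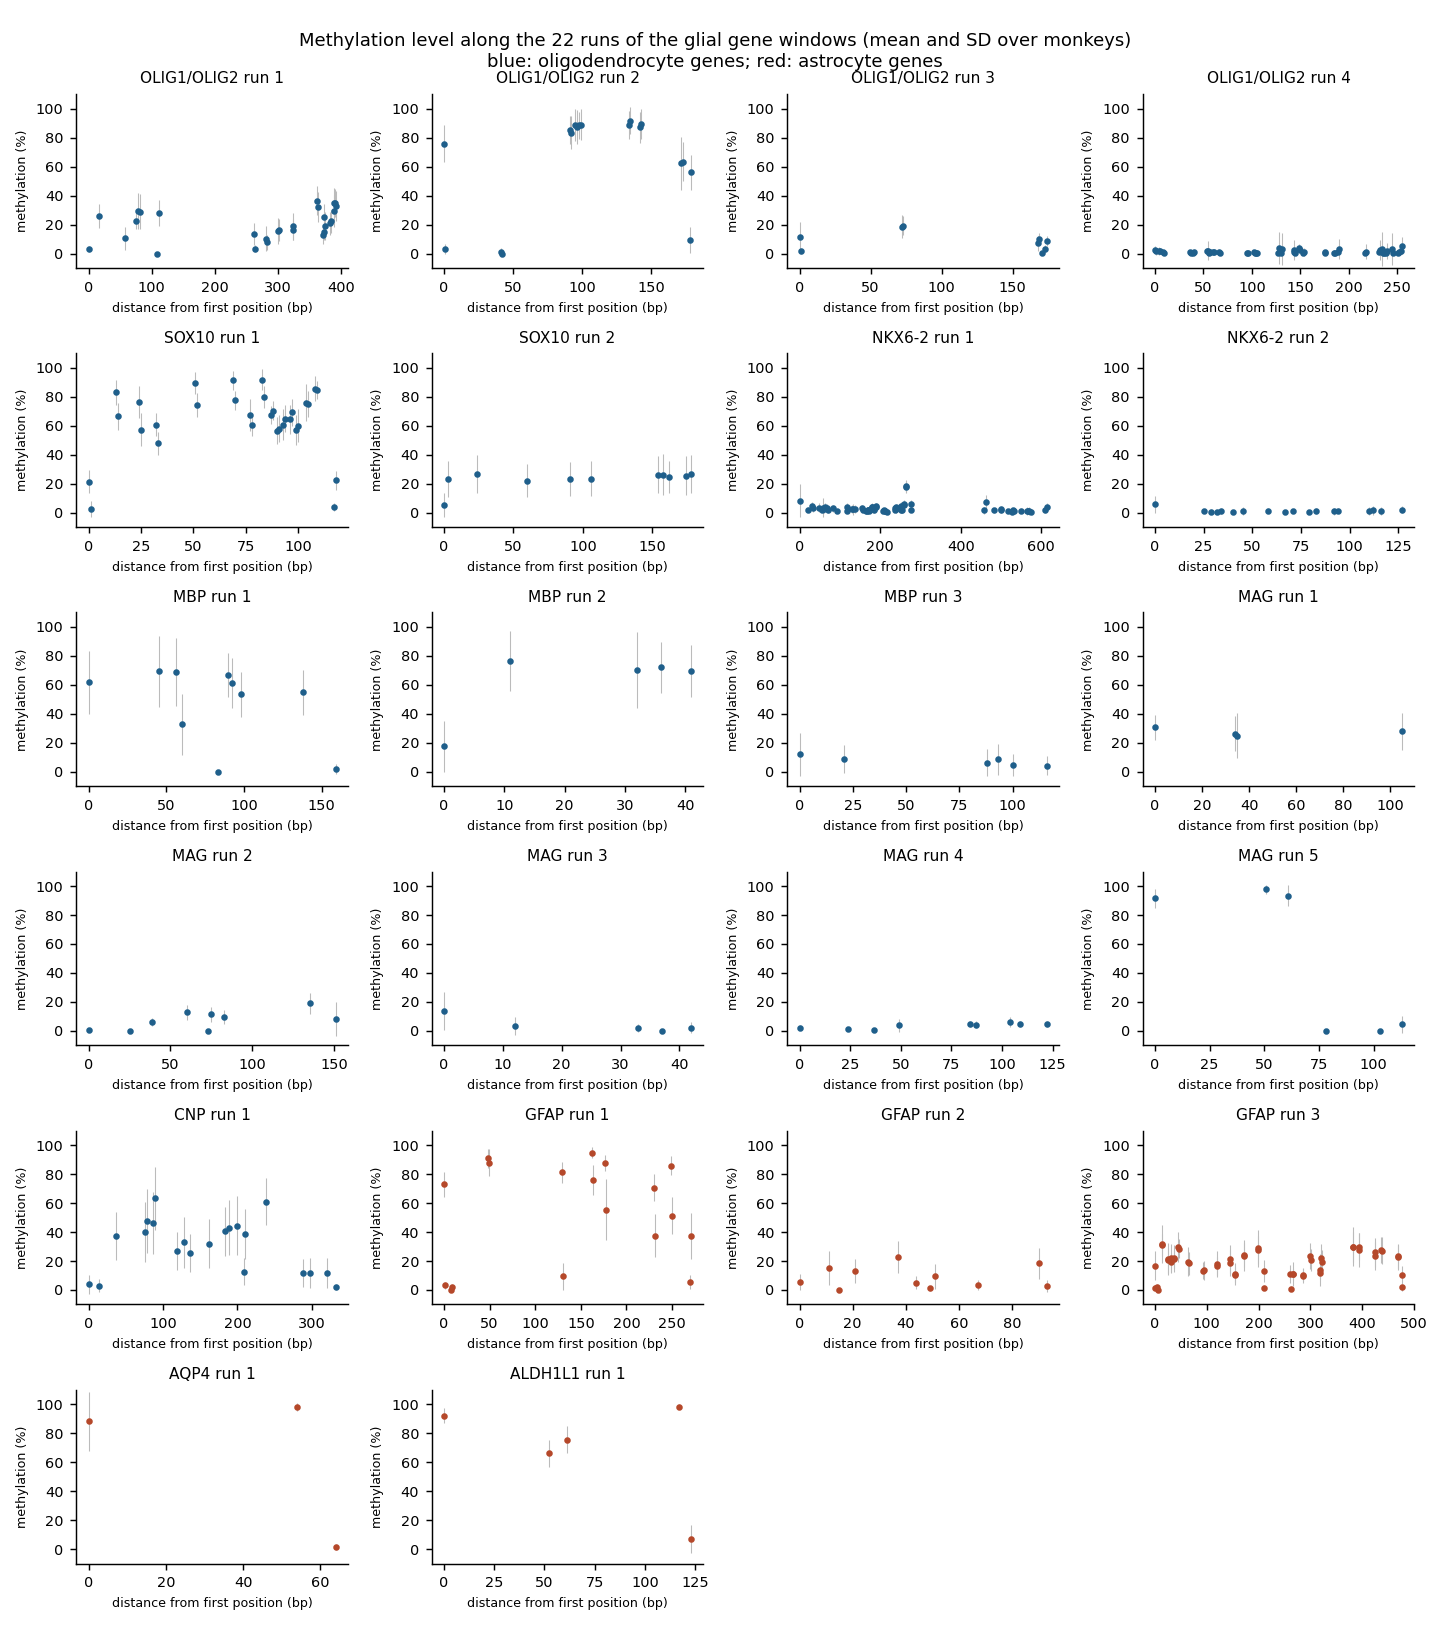
Mean methylation (%, vertical axis) of each position against its distance in bp from the first position of its run (horizontal axis), with the SD over monkeys as vertical bars, for the 22 runs. The NKX6-2 runs and OLIG1/OLIG2 run 4 lie near 0, while SOX10 run 1 is high inside and reads 2.43% to 22.3% at the cytosines of its end CpGs.

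The transcription factor genes held both nearly unmethylated and largely methylated runs. The window of OLIG1 and OLIG2, which encode basic helix-loop-helix factors of oligodendrocyte specification and maturation, held 4 runs. The lowest of them, run 4 (chr21:34442835-34443090, 57 positions), averaged 1.32% ± 1.19 (SD, n = 23), with a lowest value of 0.526%, a median of 0.982% and a highest of 6.32%. The highest value belonged to right 9, which exceeded 20% at 9 of the 57 positions and reached 58%. Right 12 exceeded 20% at 2 positions and right 1 at 1, up to 25% in each, and the other 20 monkeys at 0. Without right 9 and left 3 the run averaged 1.12% ± 0.477 (SD, n = 21).

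Run 2 of the same window (chr21:34424276-34424455, 18 positions) was largely methylated. It averaged 64.1% ± 7.10 (SD, n = 21), with a lowest value of 43.1% in right 12, a median of 66.1% and a highest of 76.2% in right 9. Right 12 stood below all others, and the next lowest monkey, left 11, had 55.6%. Without right 9 and left 3 the run averaged 63.5% ± 6.70 (SD, n = 20). Its positions did not share 1 level: a CpG inside it, chr21:34424317-34424318, averaged 1.38% and 0%, and the positions from chr21:34424367 to chr21:34424419 averaged 83.6% to 91.7%. Without the outermost sites of the run the mean was 72.4%. Run 1 (chr21:34405432-34405824, 28 positions) averaged 20.2% ± 3.84 (SD, n = 23), between 14.8% and 28.6% with a median of 19%. Run 3 (chr21:34436804-34436978, 9 positions) averaged 8.85% ± 2.32 (SD, n = 22). Its highest value was 16.9% in left 4, and the next was 11% in left 1.

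SOX10, an HMG-box factor that switches on myelin genes, had runs that differed from each other both in level and in spread. Run 1 (chr22:38379717-38379835) packed 32 positions into 119 bp and was methylated, at 63.3% ± 3.80 (SD, n = 23), with a lowest value of 52.5% in right 11, a median of 63.3% and a highest of 69.1% in left 5. Runs of 25 to 40 positions are mostly unmethylated in this table: 71.6% of the 2658 such runs had a mean under 20%, and 19% had a mean of 60% or more. The cytosines of its end CpGs read 2.43% to 22.3%, and without those sites the mean was 70.6%. Over its 14 inside pairs the lower coordinate averaged 73.5% and the upper 67.7%, and 6 of the 14 differed by more than 10 points, so its level depends in part on which cytosine was read.

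Run 2 of SOX10 (chr22:38382008-38382186, 11 positions) was lower on average than run 1 and spread widely over the animals. It averaged 23.1% ± 11.0 (SD, n = 23), with a lowest value of 5.91% in right 9, a median of 21.7% and a highest of 50.5% in left 4. The level was under 20% in 10 monkeys and above 30% in 5, namely left 4, left 1, right 5, right 1 and right 6. Right and left samples overlapped over most of the range, with a median of 19.1% on the right and 21.9% on the left. Leaving out right 9 and left 3 gave 24% ± 10.9 (SD, n = 21).

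The positions of this run moved together. Over the monkeys, the median Pearson correlation between its positions was 0.964, and 0.961 without right 9 and left 3. The median of the same measure over 14454 runs of the table with 5 or more positions and a mean of 20% to 80% was 0.0751, and 42 of them (0.291%) reached 0.9. This is a description, since positions of a run can be read on the same fragments and then share reads, depth and errors. Within a monkey, the 9 inside positions typically differed by little, with a median range of 8 points, and 18 of 23 monkeys had a range of 10 points or less. Between monkeys the SD of the inside mean was 12.2 points, against a median SD of 2.69 points between positions within a monkey. The inside positions read 43% to 51% in left 1 and 45% to 65% in left 4. In right 9, 9 of the 11 positions read exactly 0. In SOX10 run 1 the median correlation between positions was 0.154.

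**Figure D2:**
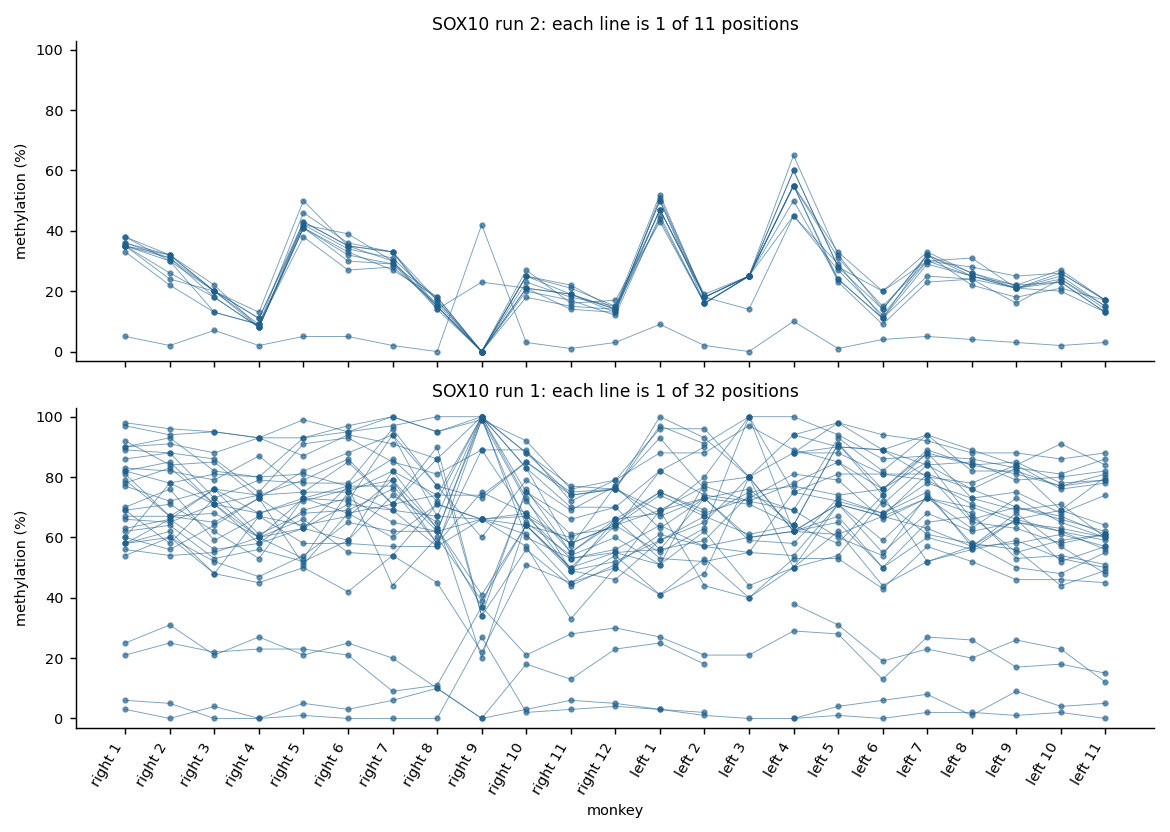
Methylation (%, vertical axis) of every position of SOX10 run 2 (top, 11 positions) and SOX10 run 1 (bottom, 32 positions) in each monkey (horizontal axis, right samples before left samples). Lines join values of 1 position and imply no order of animals, and in the top panel most lines lie close together in each monkey, with a median range of 8 points for the 9 inside positions.

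NKX6-2, a homeobox gene of myelinating oligodendrocytes, was nearly unmethylated throughout: all 87 positions had a mean under 20%. Run 1 (chr10:134598379-134598992, 69 positions) averaged 3.06% ± 0.866 (SD, n = 23), with values between 1.84% and 5.25% and a median of 3.03%. Run 2 (chr10:134599211-134599338, 18 positions) averaged 1.40% ± 0.824 (SD, n = 21), between 0.265% and 3.44%. The highest position mean of the window, 18.6%, belonged to a CpG inside run 1 whose neighbours were far lower.

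At the genes of myelin proteins some runs spread widely between animals. MAG runs 4 and 5 had SDs of 0.993 and 1.66 points, but run 4, at 3.62%, lies near 0. Run 5 held no position with a mean of 20% to 80%. Their SDs therefore cannot be compared with those of runs whose positions are intermediate. The same holds for the NKX6-2 runs, at 3.06% and 1.40%. MBP encodes the protein that holds the cytoplasmic faces of the myelin membrane together. Its run 1 (chr18:74691367-74691526, 10 positions) averaged 47.3% ± 12.6 (SD, n = 21), with a median of 51.3% and a highest value of 64.7% in right 9. The lowest values were 18.6% in right 11, 22.2% in right 3 and 23.5% in right 12. These 3 right samples stood below the rest. The other 9 right samples lay between 41.2% and 64.7%, and the left samples between 37.5% and 57.6%. Leaving out right 9 and left 3 gave 46.5% ± 12.2 (SD, n = 20).

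MBP run 2 (chr18:74794018-74794059, 5 positions) had the largest spread of the 22 runs, 61.2% ± 14.9 (SD, n = 17), with a lowest value of 19.8% in right 10, a median of 65% and a highest of 80% in right 1. In right 10, 2 of the 5 positions read exactly 0, and in right 1, 3 of the 5 read exactly 100%. The depth behind these values is unknown, so this spread cannot be told apart from that of few reads. Of the low animals of run 1, right 3 had 74.4% here, above the median, and right 11 had 51.4%, below it. Right 12 had no value. MBP run 3 (chr18:74826681-74826797, 6 positions) averaged 7.45% ± 6.88 (SD, n = 20), with a median of 5.33% and a highest value of 27.3% in left 8. A single position outside the runs, chr18:74841752, averaged 83.7% ± 10.7 (SD, n = 19).

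MAG encodes an adhesion protein on the myelin face next to the axon. Its run 1 (chr19:35782958-35783063, 4 positions) averaged 28.2% ± 10.7 (SD, n = 22), with a lowest value of 13.8% in left 6, a median of 26.6% and a highest of 59.1% in right 9. Without right 9 and left 3 it averaged 26.4% ± 8.53 (SD, n = 20), and its 4 positions also tended to move together, with a median correlation of 0.694, or 0.619 without those libraries. Runs 2, 3 and 4 of MAG were low, at 7.53%, 4.23% and 3.62%. Run 5 (chr19:35803237-35803350) averaged 48.0% ± 1.66 (SD, n = 20), but no position in it was near that level. Its first 3 positions averaged 91.5%, 97.8% and 93.5%, and the other 3 averaged 4.5% or less, 2 of them exactly 0 in every monkey with a value. Whether a base that differs between macaque and human lies at those 2 was not tested.

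CNP, a phosphodiesterase of non-compact myelin, had 1 run (chr17:40125572-40125904, 21 positions). It averaged 30.01% ± 11.2 (SD, n = 18), with a lowest value of 2.33% in right 9, a median of 30.2% and a highest of 47.8% in right 1. In right 9, 18 of the 21 positions read exactly 0. Without it the run averaged 31.6% ± 9.12 (SD, n = 17) and its lowest value was 15% in right 11. The outermost positions of the run averaged 3.8% and 2% and the highest inside position 63.2%. Its only CpG with both cytosines measured read 12.7% at the lower coordinate, chr17:40125781, and 38.8% at the upper, a mean difference within monkeys of -27.4 points, so the level of this run too may depend on which cytosine was read.

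Among the astrocyte genes, GFAP, the intermediate filament of astrocytes, was the best covered. Run 3 (chr17:42992448-42992925, 54 positions) held most of the window and averaged 18.5% ± 4.62 (SD, n = 18), between 13.3% in left 11 and 29.6% in left 6, with a median of 16.8%. Right samples lay close together there, at 16.9% ± 1.42 (SD, n = 9), and left samples were more spread, at 20.1% ± 6.12 (SD, n = 9). The left range enclosed the right range, and the run had too few monkeys to enter the tests. Run 2 (chr17:42988996-42989089, 11 positions) was lower, at 8.74% ± 3.73 (SD, n = 21).

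GFAP run 1 (chr17:42981945-42982216, 18 positions) averaged 52.8% ± 4.96 (SD, n = 23), with its highest value, 62.5%, in right 9. Without right 9 and left 3 it averaged 52.0% ± 4.40 (SD, n = 21). The level of this run depended on which cytosine of a CpG was read. Over its 7 inside pairs the lower coordinate averaged 73.0% and the upper 45.7%, and 5 of the 7 differed by more than 10 points. At 1 CpG the lower coordinate, chr17:42982074, averaged 81.3% and its partner 9.4%. The level of this run is therefore uncertain by more than the spread between monkeys.

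The other astrocyte windows were thinly covered. AQP4, the water channel of astrocyte endfeet, had 3 positions (chr18:24437525-24437589), whose means were 88.1%, 98.3% and 1.32%. The run averaged 62.9% ± 6.75 (SD, n = 22). Right 9 had 33.3%, with a reading of 0% at the first position, and the other 21 monkeys lay between 61.7% and 66.7%, at 64.3% ± 1.46 (SD, n = 21). ALDH1L1, an enzyme of folate metabolism, had 5 positions (chr3:125877314-125877437) that averaged 67.8% ± 2.84 (SD, n = 22), with a median of 67.9% and values between 61.2% and 72.4%. Its last position averaged 6.82% where the one before it had 98.4%. The means of the AQP4 and ALDH1L1 runs thus mix high positions with 1 low position at the end.

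The cytosines of the CpG at the end of a run often differed from each other, in the windows and over the table. Of 13 CpGs with both cytosines measured at the first or last place of a run, 7 (53.8%) differed by more than 10 points between the cytosines, against 13 of 109 inside runs (11.9%). Over the whole table these shares were 41.5% and 8.41%. In OLIG1/OLIG2 run 2, for example, the first CpG read 75.8% at its lower coordinate and 3.19% at its upper, and the last CpG 9.3% and 56.0%, so that the inner cytosine was the lower one at both ends. Over all 122 pairs of the glial windows the median absolute difference was 3 points and the 90th percentile 22 points. The cause was not tested.

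The spread over monkeys of the 12 glial runs at 20% to 80% was set beside that of the table. Their median SD was 6.92 points, where the 18887 such runs of the table had 4.87. Without right 9 and left 3 the medians were 5.55 and 4.52 points, and the difference was not tested. MBP runs 1 and 2, CNP, SOX10 run 2 and MAG run 1 exceeded 10 points. Without those libraries 3 runs did, MBP runs 1 and 2 and SOX10 run 2. MAG run 5 and ALDH1L1 had the smallest SDs of the 12 with all monkeys, and AQP4, MAG run 5 and ALDH1L1 without those libraries. MAG run 5 and AQP4 held no position with a mean of 20% to 80%. Their run means mix positions near 0 with high ones, so their SDs are not those of intermediate positions.

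**Figure D3:**
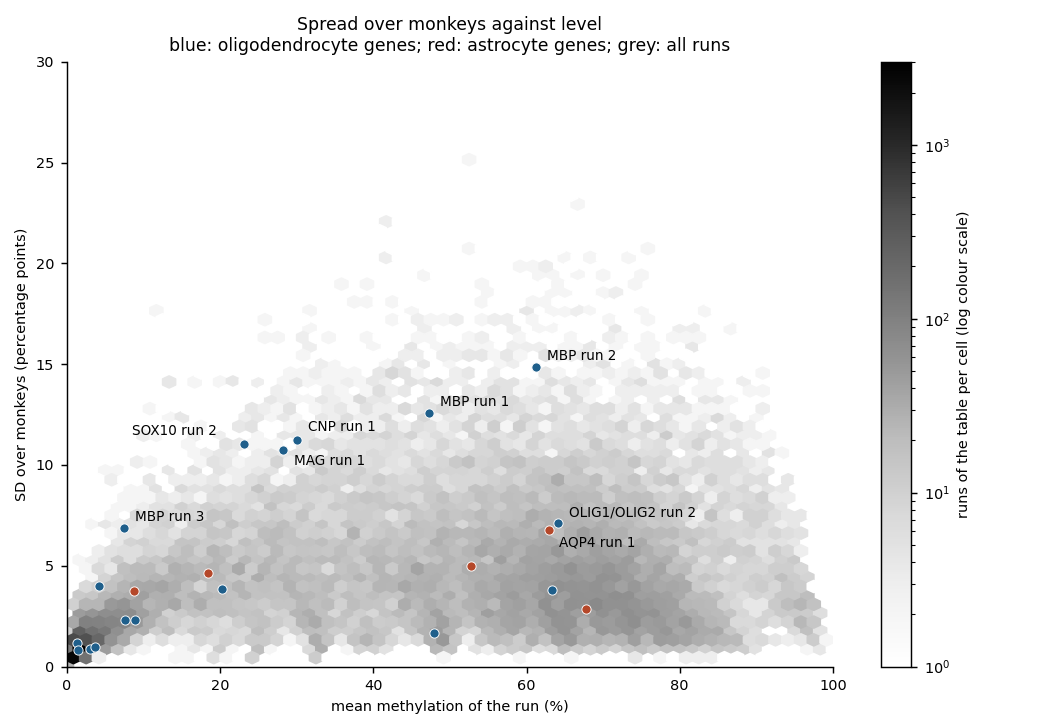
SD over monkeys (percentage points, vertical axis) against mean methylation (%, horizontal axis) of the 22 glial runs (points) and of all runs of the table (grey, darker where more runs lie, log colour scale). The runs with an SD above 6.5 points are named, and MBP run 2 has the largest SD of the glial runs, 14.9 points.

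The main question of the design was whether methylation changes with the score. Levels were fitted with score and age in a linear model with limma over all 192151 testable positions and 18910 testable runs. Testable positions had values in 20 or more monkeys and spanned 10 points or more over them, and 199 of the 409 glial positions (48.7%) and 15 of the 22 runs were. OLIG1/OLIG2 run 4 met the 5-point range asked of runs only through right 9. Without right 9 and left 3 its values lay between 0.526% and 2.26%. AQP4, between 61.7% and 66.7% without those libraries, then lay at the limit of that range. All 43 SOX10 positions were tested, but 5 of the 21 at CNP and 21 of the 83 at GFAP. After the Benjamini-Hochberg adjustment, 0 of the 199 positions and 0 of the 15 runs were called for the score, where the share over the table was 0%. An unadjusted p under 0.05 was reached by 2 positions (1.01%), against 3.12% of all tested positions, and by 0 runs, against 3.16% of all tested runs. The glial shares lay below those of the table.

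The position with the smallest p was chr21:34424449, in OLIG1/OLIG2 run 2. Its values were 41% at the lowest, 63% at the median and 86% at the highest, and the fitted slope was -8.78 ± 3.60 points per unit of score (SE, n = 21, limma p = 0.0229, adjusted p = 1). The second was in the same run, at chr21:34424277, with a slope of -2.24 ± 0.962 (SE, limma p = 0.0291). The run as a whole changed by -2.12 ± 2.00 points per unit (SE, n = 21, limma p = 0.302). Slopes of the 15 runs lay between -3.25 points per unit at MBP run 1 and 1.76 at MBP run 3, and the smallest p among them was 0.183, at GFAP run 1, with -1.94 ± 1.42 (SE, limma). The SOX10 runs changed by -0.20 ± 1.14 and -0.99 ± 2.93 points per unit (SE, limma).

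**Figure D4:**
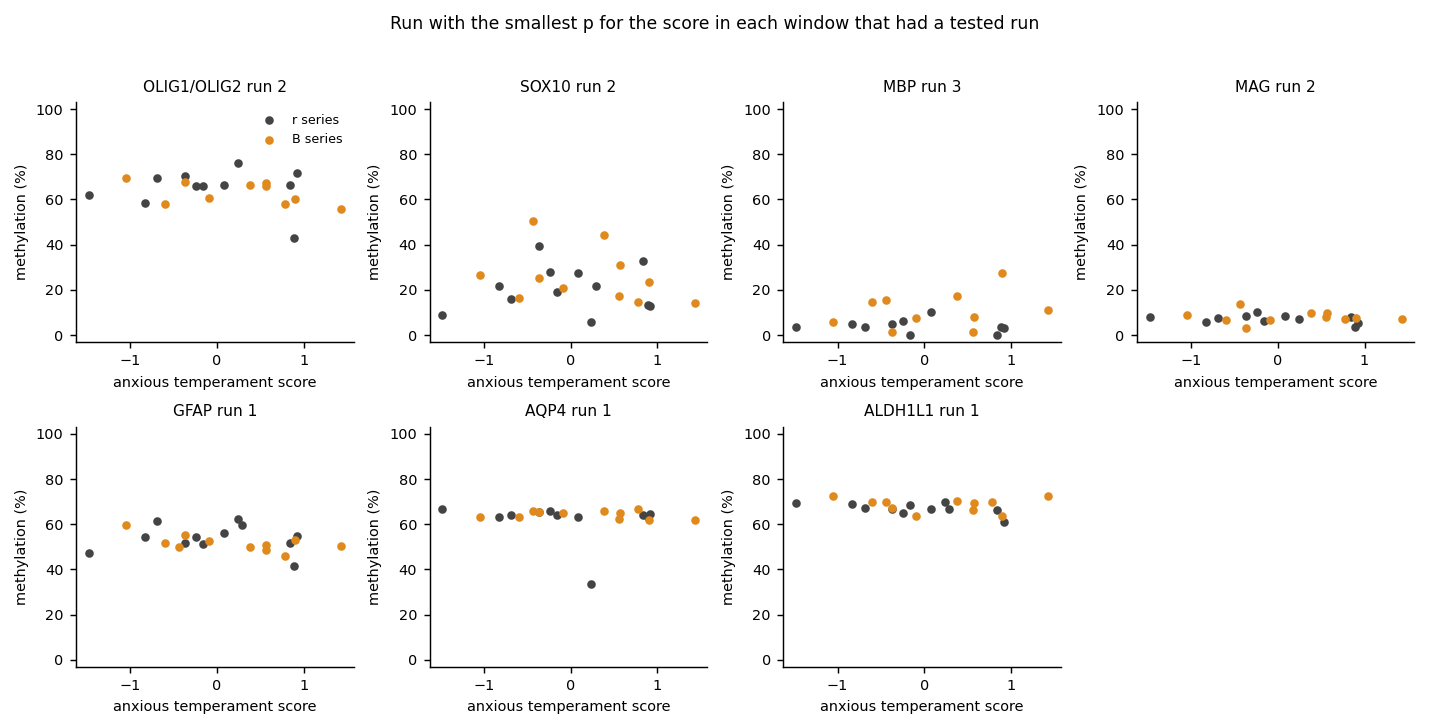
Methylation of a run (%, vertical axis) against the anxious temperament score (horizontal axis), 1 point per monkey, for the run with the smallest p in each window that had a tested run. Dark points are r series monkeys and orange points B series monkeys. No run was called, and the AQP4 point at 33.3% is right 9.

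Age, the covariate of the study, gave no call either. Of the 199 positions 0 passed the adjusted threshold, against 0.0531% of all tested positions, and of the 15 runs 0, against 0.00529% of all tested runs. Without adjustment, 2 positions (1.01%, against 4.06% of all tested) and 1 run (6.67%, against 6.04% of all tested) had a p under 0.05. The positions were chr18:74826769 and chr18:74826781 in MBP run 3, whose slopes were 17.4 ± 7.85 and 14.7 ± 6.78 points per year (SE, n = 20 monkeys). With limma the adjusted p was 1 for both. The first of these positions read 0 in 11 of the 20 monkeys and reached 36% in left 8. The run was MAG run 2, with 4.41 ± 2.09 points per year (SE, n = 22; limma p = 0.0469 and 0.818 after adjustment). Slopes were positive in 12 of the 15 glial runs and in 63.3% of all tested runs.

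SOX10 run 2 had the steepest age slope of the glial runs, 19.0 ± 9.86 points per year (SE, n = 23; limma p = 0.0669 and 0.847 after adjustment). It rested on left 1, the oldest monkey, which had 44.1% in this run. Without left 1 the slope was 5.22 points per year (limma p = 0.752), and within the r series alone it was -64.1.

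No difference between right and left samples was called at these genes. With score and age in the model, 0 of the 199 positions and 0 of the 15 runs were called for right minus left, and the share over the table was 0% for both. Unadjusted p-values under 0.05 were found at 3 positions (1.51%, against 3.48% of all tested) and 0 runs (against 3.31% of all tested). The smallest p was at chr17:42989040, in GFAP run 2, where right samples had 0% at the lowest, 1% at the median and 10% at the highest, and left samples 3%, 7% and 12%. The groups overlapped, and the fitted difference was -4.47 ± 1.69 points (SE, n = 21, limma p = 0.0147, adjusted p = 0.93). Among the runs, GFAP run 1 averaged 51.5% ± 5.65 on the right (SD, n = 12) and 54.2% ± 3.87 on the left (SD, n = 11), a fitted difference of -3.04 ± 2.00 points (SE, limma p = 0.144, adjusted p = 0.987). MBP run 1, with its 3 low right samples, averaged 45.4% ± 15.7 on the right (SD, n = 12) and 49.9% ± 6.51 on the left (SD, n = 9). Its fitted difference was -4.92 ± 5.40 points (SE, limma p = 0.373). A slope for the score that differed between the hemispheres was called by limma at 0 of the 199 positions and 0 of the 15 runs, where the share over the table was 0% for both. Unadjusted, 3 positions (against 3.24% of all tested) and 0 runs (against 3.93% of all tested) had a p under 0.05.

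**Figure D5:**
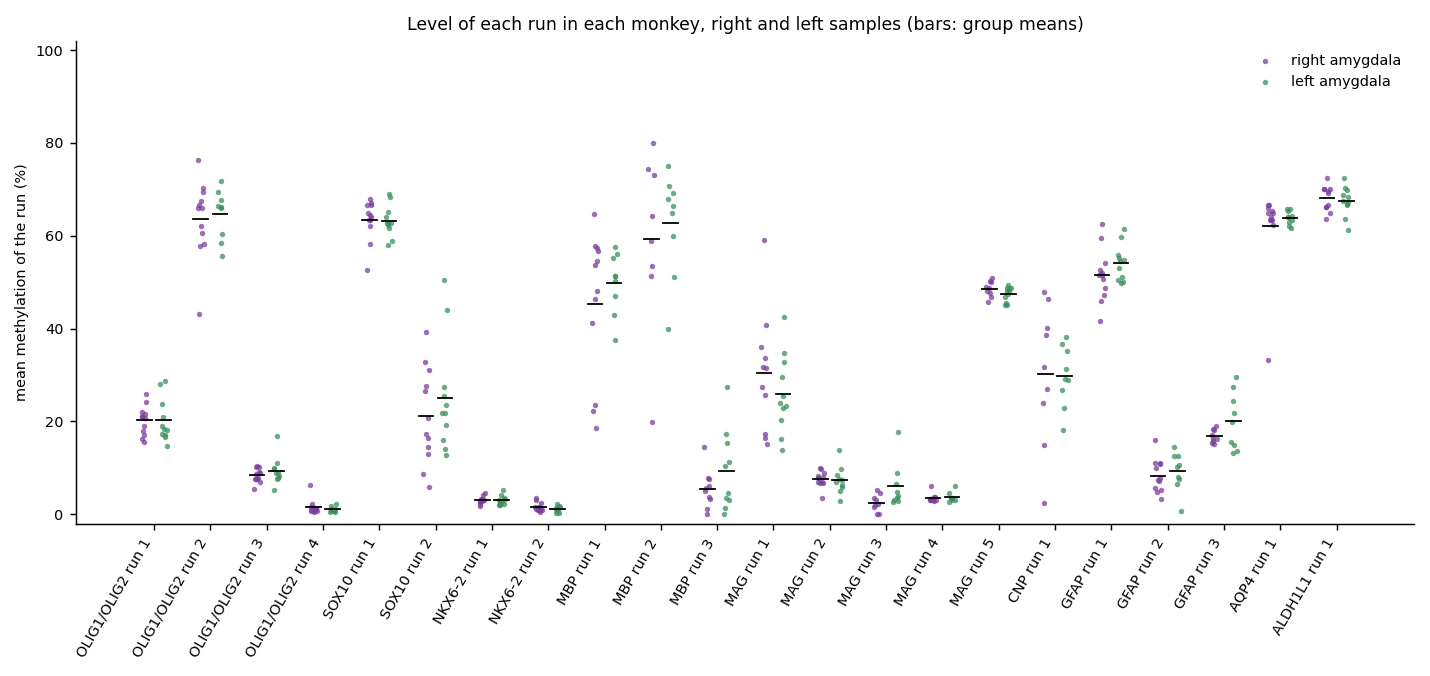
Mean methylation (%, vertical axis) of each of the 22 runs in each monkey, right samples (purple) left of left samples (green), with group means as bars. The groups overlap in every run, and single animals far from the rest include right 9 at AQP4 and MAG run 1.

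Relations between the windows differed in sign. For the 5 windows with at least 10 positions of intermediate level, the mean deviation of each monkey from the position means was computed, and the 10 relations between windows were tested by permutation of monkeys (100000 resamples, 2-sided). The CNP index rested on 1 of its 14 positions in 5 monkeys, left 3, left 4, right 3, right 4 and right 12. Each relation with CNP was therefore also computed from monkeys with at least 50% of a window's positions, 18 at CNP and 18 at GFAP. The strongest was negative: OLIG1 and OLIG2 against CNP had r = -0.533 (permutation p = 0.00892, adjusted over the 10 relations 0.0705) and rho = -0.585 (permutation p = 0.00359, adjusted 0.0359; n = 23), so rho passed the adjusted threshold and r did not. Without the 2 monkeys farthest from the median of the OLIG1 and OLIG2 index, left 6 and left 9, r was -0.600. Right 9, which had the lowest CNP index (-38.7), was still included there. Within the identifier series r was -0.547 in r and -0.543 in B. After leaving out right 11 it was -0.610, with an adjusted permutation p of 0.02, and after right 12 -0.600, with 0.026. Over all monkeys left out 1 at a time, r ranged between -0.610 and -0.451, and the adjusted permutation p between 0.02 and 0.131. With at least 50% of the positions r was -0.528 (n = 18, adjusted permutation p = 0.122). With all positions of the windows it was -0.373 (n = 23, adjusted permutation p = 0.197).

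SOX10 and CNP had a positive relation, with r = 0.504 (permutation p = 0.0141, adjusted 0.0705) and rho = 0.470 (permutation p = 0.0258, adjusted 0.129; n = 23). It was 0.441 without left 4 and right 11, the monkeys farthest from the SOX10 median, and within series 0.692 in r and 0.302 in B. It passed the adjusted threshold after leaving out left 5 (0.589, adjusted permutation p = 0.0385) or left 11 (0.601, adjusted permutation p = 0.036). With at least 50% of the positions it was 0.43 (n = 18, adjusted permutation p = 0.249). MBP against CNP had r = 0.308 (permutation p = 0.173, adjusted 0.288) and rho = 0.323 (permutation p = 0.152, adjusted 0.417; n = 21). SOX10 against MBP had r = 0.363 (permutation p = 0.106, adjusted 0.264) and rho = 0.229 (permutation p = 0.317, adjusted 0.453; n = 21). Without right 9 these values of r became 0.649 (adjusted permutation p = 0.0125) and 0.571 (adjusted permutation p = 0.0347), so right 9, which read high at MBP run 1 and low at CNP and SOX10 run 2, moved both across the threshold. MBP against CNP was -0.0294 without right 11 and right 12, which lie farthest from the MBP median, and 0.0611 with at least 50% of the positions (n = 18, adjusted permutation p = 0.81). The remaining 6 relations had r between -0.305 for CNP with GFAP and 0.453 for OLIG1 and OLIG2 with GFAP, and the smallest adjusted permutation p among them was 0.0979. As a description, the SOX10 index followed the same index over the whole table with r = 0.807 (n = 23). Left 4, left 1, right 5 and right 6, among the highest monkeys in SOX10 run 2, had the highest table indices, 3.64, 2.90, 2.81 and 2.46. Right 1, also high in that run, had 1.49. The spread of SOX10 run 2 was not tested apart from the table index. With the table index subtracted, r was 0.435 for SOX10 with CNP and -0.697 for OLIG1 and OLIG2 with CNP.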

How the data were processed

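Genomic DNA of the central amygdala nucleus of 23 monkeys was measured, 1 library each. The authors deposited, for 444312 positions, the methylated share in each monkey as a fraction. Alignment with Bismark 0.11.1 and the build hg19 come from the submitters' processing notes, which name no coverage filter. Macaque reads on human coordinates may be missing or misread where the genomes differ. Fractions were multiplied by 100. Samples were grouped by hemisphere from the labels and numbered in accession order. All positions and runs of the table entered linear models in R 4.3.3, with the moderated variances of limma 3.58.1 following the mean level and 2-sided tests, with score and age, or hemisphere, score and age, as terms; Benjamini-Hochberg adjustment ran over the whole table, with calls at an adjusted p under 0.05. Runs needed values in 20 monkeys and a range of 5 points, and a monkey needed 50% of a run's positions. The fit was tested on simulated data. Permutation tests used numpy 2.4.6, with ranks for rho from scipy 1.17.1, and figures matplotlib 3.10.9. With 1 library per monkey, the p-values rest on the spread between libraries, where differences of animal, depth and cell mixture cannot be told apart.

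The genes, windows and lists were chosen with earlier results of these data known. Named were, in each window, the run with the most positions, the run with the largest SD at 20% to 80%, and the position and run whose score p was smallest, and overall the 3 positions and 3 runs with the smallest p for age and for hemisphere; other items were chosen after their values were seen. Other genes of the lineages were not placed, because no hg19 annotation was used here. Alternatives covered the scale of the level, range filters, covariates, missing values, region definitions, identifier series, leaving out each monkey, and, chosen after seeing the data, leaving out right 9, left 3 and left 1 or the ends of runs, and requiring 50% of a window's positions for its index.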

Additional observations from a re-analysis of the deposited data

How the results depend on the processing

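The counts of called positions and runs were 0 for score, age and right minus left under all alternatives run, including each monkey left out, with 1 exception for age. Without right 9 and left 3, 1 position was called, chr17:42992766 in GFAP run 3, with a slope of 36.7 ± 6.58 points per year (SE, n = 18, limma, adjusted over all positions tested in that setting, p = 0.0334). It had too few values for the reported test, its highest value was 47% in left 1, the oldest monkey, and without left 1 as well 0 positions were called. At an unadjusted p under 0.05, the alternatives, each monkey left out included, gave 0 to 7 glial positions for the score, against 1.97% to 4.6% of all positions tested. For age they gave 0 to 16, against 2.68% to 6.04%, and for right minus left 1 to 12, against 2.68% to 4.36%. Named slopes, none of them called, changed sign in some settings. Within the r series alone the score slopes were 0.30 at SOX10 run 1, 0.0516 at OLIG1/OLIG2 run 2 and -0.86 at MBP run 3, and the age slopes -72.6 at chr22:38382182, -64.1 at SOX10 run 2 and -4.91 at MAG run 2. Within the B series alone the score slopes were 3.56 at MBP run 1 and -2.22 at MAG run 1, which was -0.0542 with no minimum share of positions. With each monkey left out, the score slopes ranged between -0.95 and 0.50 at SOX10 run 1, -4.05 and 0.12 at SOX10 run 2, and -1.05 and 2.41 at MAG run 1; the cause was not tested. With cut points of 10% and 90%, the shares of low, intermediate and high positions were 51.8%, 45.5% and 2.69%. After the index of the whole table was subtracted, r was -0.543 for OLIG1 and OLIG2 with SOX10, -0.697 for OLIG1 and OLIG2 with CNP and -0.537 for SOX10 with GFAP, all past the adjusted threshold. With all positions of a window, OLIG1 and OLIG2 with SOX10 had 0.213, SOX10 with GFAP 0.0507 and OLIG1 and OLIG2 with CNP -0.373. With at least 50% of a window's positions in each monkey, no relation passed the adjusted threshold. Without right 9 and left 3, SOX10 with MBP had 0.571 and MBP with CNP 0.649. With each monkey left out, r ranged between 0.423 and 0.601 for SOX10 with CNP, 0.209 and 0.571 for SOX10 with MBP, 0.144 and 0.649 for MBP with CNP, and -0.610 and -0.451 for OLIG1 and OLIG2 with CNP. No paired analysis was possible because no animal was sampled on both sides, and replicate numbers follow accession order. A higher coverage minimum was not run, since the table holds no read counts, and depth therefore limits single positions to an unknown degree.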
